A study of Mus musculus with 6 samples.

Results

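The 10 genes described here make nitric oxide from arginine, divide arginine between competing enzymes, and build or break down polyamines. They were taken by name from a table of 55335 mouse genes, of which 11270 averaged 1 FPKM or more and were tested. FPKM counts fragments per length of transcript and per mapped fragment, so levels of different genes can be set side by side. All 10 were found under their symbols, 6 of them (Nos2, Odc1, Oaz1, Srm, Sms and Sat1) were tested, and 4 (Arg1, Arg2, Ass1 and Slc7a2) lay below 1 FPKM and were not.

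The cells were RAW264.7, a macrophage line from a mouse tumour, labelled WT. One group of 3 libraries came from cells given LPS and low-intensity pulsed ultrasound, and the other group of 3 from cells given LPS without ultrasound. All cells received 200 ng/ml LPS, a component of the bacterial cell wall, for 8 h. Ultrasound lasted 10 min of that time, with an intensity of 50 mW/cm² at 1 MHz, in 200 µs pulses repeated at 1 kHz (a 20% duty cycle). The comparison asks what ultrasound changes in LPS-treated macrophages, and no library came from cells without LPS. No label says that replicate libraries are separate cultures, so the spread behind the p-values may be a technical one, among these libraries only.

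Arginine has competing fates in a macrophage. Nitric oxide synthase turns it into nitric oxide and citrulline, which the citrulline-arginine cycle can turn back into arginine, while arginase turns it into ornithine and urea. Ornithine decarboxylase then makes putrescine, and spermidine and spermine are built from putrescine with aminopropyl groups that come from S-adenosylmethionine. Nitric oxide is a microbicidal product of mouse macrophages activated by bacterial products, and arginase is known as a marker of their alternative activation.

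The libraries carried macrophage RNA. The most abundant of 11 macrophage markers were Fcer1g (838 to 974 FPKM over the 6 libraries), Cd68 (606 to 687) and Laptm5 (243 to 377), and 10 of the 11 reached a mean of 1 FPKM. No marker of skeletal muscle, fibroblasts, endothelium, neutrophils, T cells, hepatocytes or erythroid cells reached that mean, and of 5 dendritic cell markers 1 did (Itgax, 7.07 to 12.3 FPKM). The highest of those below it were Mylpf, Col1a1, Cdh5, S100a8, Cd4, Apoa1 and Epor, at means of 0.587, 0.0136, 0.411, 0.227, 0.0591, 0.0641 and 0.141 FPKM. FPKM summed to 286302 to 292200 in the ultrasound libraries and to 278871 to 287043 in the LPS libraries. LPS library 2 stood apart, at 28.8 on a first principal component (41.9% of the variance) where the other 5 lay between -17.7 and 2.03, and several results are also given without it. In bulk RNA, fewer expressing cells and less RNA per cell cannot be told apart.

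The members spanned more than 4 orders of magnitude. Odc1 was the most abundant in all 6 libraries, Oaz1, Sat1, Srm and Sms followed at 13.5 to 38.1 FPKM, Nos2 lay at 4.20 to 6.49 FPKM, and the arginases, Ass1 and Slc7a2 stayed under 0.56 FPKM. The order by mean was Odc1, Oaz1, Sat1, Srm, Sms, Nos2, Arg1, Ass1, Arg2 and Slc7a2. Single libraries of Oaz1, Sat1 and Srm overlapped in level, as did those of Ass1 with Arg1 and with Arg2.

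**Figure D1:**
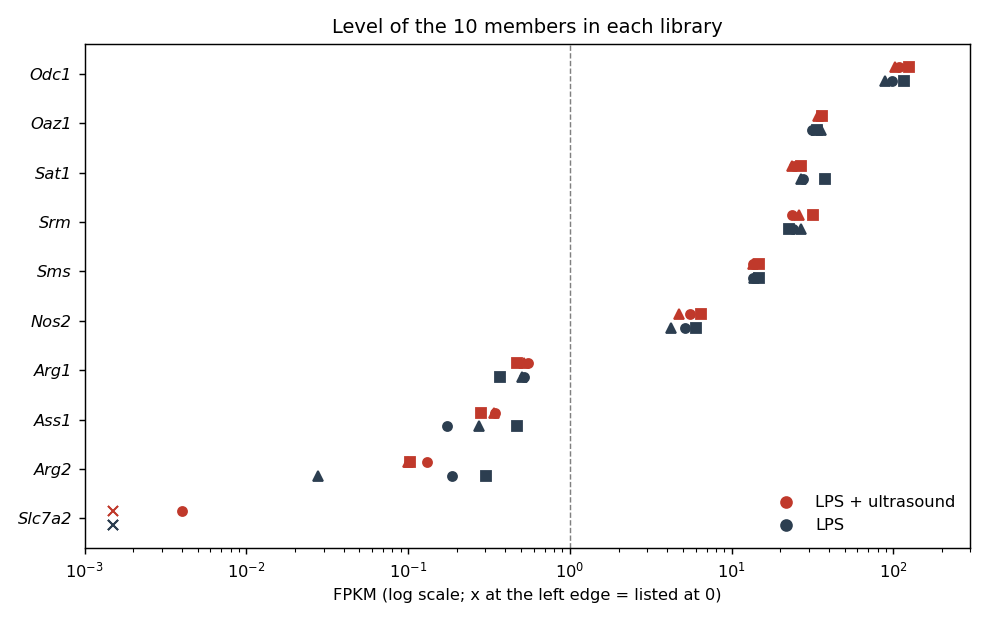
FPKM of each of the 10 members (rows) in each library on a log axis, LPS plus ultrasound in red and LPS in dark blue, with circles, squares and triangles for libraries 1, 2 and 3, crosses at the left edge for values listed at 0, and a dashed line at the 1 FPKM filter. Odc1 lies near 100 FPKM, Nos2 between 4.20 and 6.49 FPKM, and 4 members lie left of the line.

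Nos2 (ENSMUSG00000020826), for inducible nitric oxide synthase, had 5.56, 6.49 and 4.72 FPKM in the ultrasound libraries 1, 2 and 3, and 5.18, 6.04 and 4.20 FPKM in the LPS libraries 1, 2 and 3. The groups overlapped, and the order of the libraries was the same in both, with number 2 the highest and number 3 the lowest. The difference was 0.10 ± 0.15 on the log2 scale (standard error, limma with Benjamini-Hochberg adjusted p = 0.75), with a 95% interval from -0.24 to 0.45. Within same-numbered libraries, ultrasound minus LPS was 0.381, 0.442 and 0.518 FPKM. Without LPS library 3 the log2 difference was -0.01, without LPS library 2 it was 0.21, and without ultrasound library 2 or 3 it was 0.0075 or 0.20. Among the tested genes Nos2 ranked at percentile 37.9 by level.

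Of the members that supply arginine, both lay below the filter. Slc7a2, a cationic amino acid transporter gene that activated macrophages are known to use for arginine uptake, was listed at 0 in 5 of 6 libraries and at 0.00398 FPKM in ultrasound library 1. An exact 0 can be a failed estimate, and for 10 genes of the table a 0 stood beside a value above 5 FPKM elsewhere. Each of 16 widely expressed genes looked at, Actb and Gapdh among them, was above 0 in every library. Whether the zeros of Slc7a2 are failed estimates was not tested. Ass1, the argininosuccinate synthase gene of the citrulline-arginine cycle, had 0.345, 0.281 and 0.340 FPKM with ultrasound and 0.173, 0.469 and 0.273 FPKM with LPS. The ultrasound values of Ass1 lay inside the LPS range. The other enzyme of that cycle, Asl, and the related transporter Slc7a1 were well above both, at 12.4 to 16.0 FPKM and 26.9 to 43.3 FPKM over the 6 libraries.

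Both arginase genes lay below the filter. Arg1 (cytosolic arginase) had 0.554, 0.469 and 0.524 FPKM in the ultrasound libraries, against 0.520, 0.368 and 0.505 FPKM in the LPS libraries. Arg2 (mitochondrial arginase) had 0.130, 0.102 and 0.1004 FPKM with ultrasound and 0.187, 0.304 and 0.0278 FPKM with LPS. The LPS libraries of Arg2 spanned the whole range of the ultrasound libraries. Its 3′ end overlaps Vti1b on the other strand in the GENCODE M21 annotation, a gene with 46.1 to 59.1 FPKM, and strand use is not given in the sources used here, so the low Arg2 values are uncertain. Nos2 was 9.02 to 13.8 times Arg1 by FPKM in the ultrasound libraries and 8.33 to 16.4 times in the LPS libraries.

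Odc1 (ENSMUSG00000011179) encodes ornithine decarboxylase, the first enzyme of polyamine synthesis, and ranked at percentile 96.6 of the tested genes by level. It had 108, 125 and 102 FPKM in the ultrasound libraries 1, 2 and 3, and 98.3, 117 and 88.2 FPKM in the LPS libraries. The groups overlapped, as LPS library 2 exceeded ultrasound libraries 1 and 3. The log2 difference was 0.15 ± 0.12 (limma with Benjamini-Hochberg adjusted p = 0.59, 95% interval -0.14 to 0.43). The difference was 0.25 without LPS library 2, 0.05 without LPS library 3 and 0.06 without ultrasound library 2. Each ultrasound library lay above the LPS library of the same number, by 9.66, 8.02 and 13.7 FPKM.

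Oaz1 (ENSMUSG00000035242) encodes antizyme 1, which binds ornithine decarboxylase, sends it to the proteasome and slows polyamine uptake. It had 35.9, 36.4 and 34.2 FPKM with ultrasound and 31.5, 33.6 and 35.9 FPKM with LPS, with overlapping groups. The log2 difference was 0.08 ± 0.07 (limma with Benjamini-Hochberg adjusted p = 0.64, 95% interval -0.10 to 0.25), and 0.03 without LPS library 1 and 0.12 without LPS library 3.

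The values of Odc1, Oaz1 and Sms stand beside processed pseudogenes with nearly the same sequence. A search of the GENCODE M21 transcripts (mouse build GRCm38) with the longest coding transcript of each member, at 90% identity or more over at least 300 bases, found copies of 6 members. Odc1 had 12, Sms 7, Sat1 2, and Ass1, Oaz1 and Srm 1 each. The most abundant were Oaz1-ps on chromosome 17 (99.3% identity over 685 bases), Gm7993 on chromosome 5 (95.7% to Odc1 over 1388 aligned positions) and Sms-ps on chromosome X (identical to Sms over 1101 bases).

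Translation of antizyme needs a shift of the reading frame, which polyamines are known to promote, at a codon followed by a stop. The stretch around that site is shown because the annotated transcripts of Oaz1 differ there. The first line is the annotated transcript Oaz1-205 (chromosome 10), the second the coding model Oaz1-207, and the third Oaz1-ps (chromosome 17), each on the sense strand, with capitals at the shift site.
Oaz1-205: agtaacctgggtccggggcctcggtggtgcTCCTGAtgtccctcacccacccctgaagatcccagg
Oaz1-207: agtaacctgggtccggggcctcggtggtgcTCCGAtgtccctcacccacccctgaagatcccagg
Oaz1-ps: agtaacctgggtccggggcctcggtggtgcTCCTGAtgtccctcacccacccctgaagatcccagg
The first reading frame of Oaz1 ends after 68 codons at this stop. Of 7 annotated Oaz1 transcripts, 2 hold the T of the stop and 3 leave it out, so that the model reads through, and Oaz1-ps matches the message that holds it at all 66 bases shown. The sources used here do not name the annotation or quantifier behind the deposited values.

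The first 60 coding bases of Odc1 (chromosome 12) and the same stretch of Gm7993 (chromosome 5) differ at 1 base, in capitals.
Odc1: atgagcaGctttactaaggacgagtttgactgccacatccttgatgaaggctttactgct
Gm7993: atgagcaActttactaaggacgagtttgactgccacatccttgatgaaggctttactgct
Short fragments inside such stretches can match both.

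Oaz1-ps had 104, 103 and 102 FPKM in the ultrasound libraries and 97.2, 87.1 and 92.5 FPKM in the LPS libraries, 2.58 to 3.09 times Oaz1 itself. The groups of this pseudogene did not overlap, with ultrasound higher, and the log2 difference of 0.16 ± 0.07 missed the threshold (limma, Benjamini-Hochberg adjusted p = 0.33). Gm7993 had 76.2, 83.2 and 69.5 FPKM with ultrasound and 65.9, 85.8 and 60.5 FPKM with LPS. Its ratio to Odc1 was nearly constant, at 0.706, 0.666 and 0.682 with ultrasound and 0.671, 0.733 and 0.685 with LPS. Sms-ps lay at 9.67 to 11.8 FPKM, 0.705 to 0.801 times Sms. Whether these values are transcripts of the copies or fragments of the parent genes was not tested.

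When the fragments of all copies were added to their parent gene by length, an alternative chosen after seeing the data, Odc1 averaged 165 ± 16.1 FPKM with ultrasound and 150.0 ± 23.0 FPKM with LPS (SD, n = 3 each). Oaz1 then had 102, 103 and 99.2 FPKM with ultrasound and 93.7, 89.4 and 95.1 FPKM with LPS. In this form the Oaz1 groups no longer overlapped, and the log2 difference was 0.13 (limma with Benjamini-Hochberg adjusted p = 0.37). The level of Odc1 relative to Oaz1 depended on this choice. As deposited, Odc1 was 2.98 to 3.44 times Oaz1 with ultrasound and 2.46 to 3.48 times with LPS, and with the copies added 1.52 to 1.78 times with ultrasound and 1.37 to 1.96 times with LPS.

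Srm (ENSMUSG00000006442), the spermidine synthase gene, had 23.6, 32.0 and 26.2 FPKM with ultrasound and 23.9, 22.5 and 26.7 FPKM with LPS. The groups overlapped, and ultrasound library 2 was the highest. The log2 difference was 0.15 ± 0.12 (limma with Benjamini-Hochberg adjusted p = 0.58, 95% interval -0.14 to 0.44), and 0.03 without ultrasound library 2, 0.24 without ultrasound library 1 and 0.09 without LPS library 2. In same-numbered libraries, ultrasound minus LPS was -0.311, 9.50 and -0.512 FPKM, so 1 library number carried the difference.

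Sms (ENSMUSG00000071708), the spermine synthase gene, differed least between the groups. It had 13.5, 14.7 and 13.6 FPKM with ultrasound and 13.6, 14.8 and 13.8 FPKM with LPS. The log2 difference was -0.01 ± 0.08 (limma with Benjamini-Hochberg adjusted p = 0.96), with a 95% interval from -0.19 to 0.17, which spans folds of 0.876 to 1.12.

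Sat1 (ENSMUSG00000025283) encodes spermidine/spermine acetyltransferase, which marks polyamines for oxidation or export. It had 24.3, 26.9 and 23.5 FPKM in the ultrasound libraries 1, 2 and 3, and 27.6, 38.1 and 27.0 FPKM in the LPS libraries. Every ultrasound library lay below every LPS library, though ultrasound library 2 and LPS library 3 were close. The mean was 0.805 times that of LPS, and the log2 difference was -0.29 ± 0.14, short of the threshold (limma with Benjamini-Hochberg adjusted p = 0.37, 95% interval -0.61 to 0.04). LPS library 2, which stood apart over all genes, was the highest, and without it the difference was -0.13. Without both libraries numbered 2 it was -0.19, and it stayed below 0 with each library left out.

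**Figure D2:**
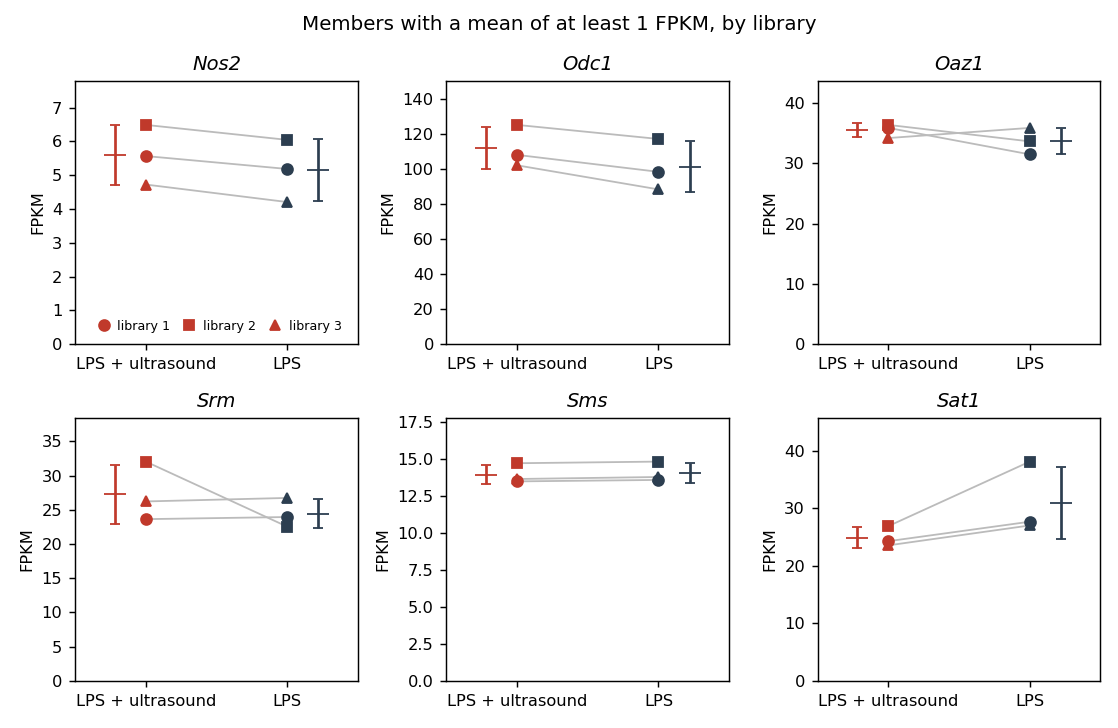
FPKM of the 6 tested members in the LPS plus ultrasound libraries (left, red) and the LPS libraries (right, dark blue), with lines joining libraries of the same number and bars for the mean and SD of 3 libraries. Nos2 and Odc1 run slightly down to LPS along all 3 lines, Sms is level, and for Sat1 all 3 ultrasound libraries (23.5 to 26.9 FPKM) lie under the LPS libraries (27.0 to 38.1 FPKM).

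No member passed the threshold of an adjusted limma p below 0.05, in either direction. Over all tested genes 2 passed, 0.0177% of 11270, both higher with ultrasound. Blocking on replicate number, limma passed 13 (0.115%), 4 higher and 9 lower with ultrasound, and again no member. With this block the adjusted limma p was 0.10 for Sat1, 0.13 for Odc1 and 0.30 for Nos2. For Srm, Oaz1 and Sms it was 0.45, 0.47 and 0.90. The median log2 difference of the 6 tested members was 0.09, beside -0.02 over all tested genes, and 4 of the 6 were above 0. Groups did not overlap for 1 of the 6, Sat1, against 23.2% of all tested genes (9.8% higher and 13.4% lower with ultrasound). In all 3 same-numbered comparisons, 2 of the 6 were higher (Nos2 and Odc1) and 2 lower (Sms and Sat1), where 24.3% and 30.9% of all tested genes were. These shares lie near those of the whole table.

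**Figure D3:**
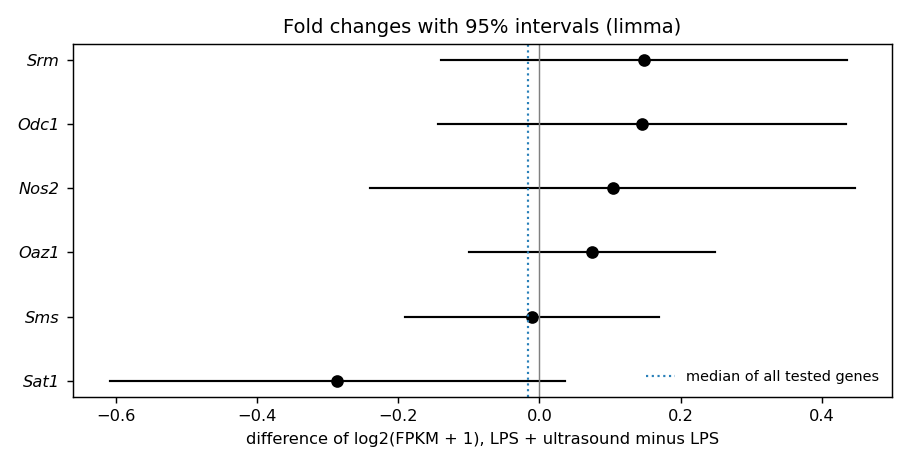
Log2 difference (FPKM + 1) of LPS plus ultrasound from LPS, positive when ultrasound is higher, for the 6 tested members, with the 95% interval of the limma fit, a solid line at 0 and a dotted line at the median of all 11270 tested genes. Every interval includes 0, and that of Sat1 reaches from -0.61 to 0.04.

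Ratios of members within a library do not depend on the scaling of that library, apart from the pseudocount of 1 FPKM. Of 8 ratios, Sat1 to Odc1 was the 1 whose groups did not overlap. Its log2 value was -2.11, -2.18 and -2.07 in the ultrasound libraries and -1.79, -1.59 and -1.67 in the LPS libraries. Sat1 thus had 0.215 to 0.231 times the FPKM of Odc1 with ultrasound and 0.281 to 0.326 times with LPS, and LPS library 2 was again the highest. With the copies added the log2 ratio lay at -2.71 to -2.62 with ultrasound and at -2.33 to -2.17 with LPS. Being a ratio of 2 members chosen with earlier results known, it is given without a test. Sat1 by itself already separated the groups, as did 23.2% of all tested genes. No such share was worked out for ratios of other genes. Srm to Sms had log2 values of 0.77, 1.07 and 0.89 with ultrasound and 0.77, 0.57 and 0.91 with LPS, and Odc1 to Oaz1 1.56, 1.75 and 1.55 with ultrasound and 1.61, 1.77 and 1.28 with LPS, both overlapping.

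**Figure D4:**
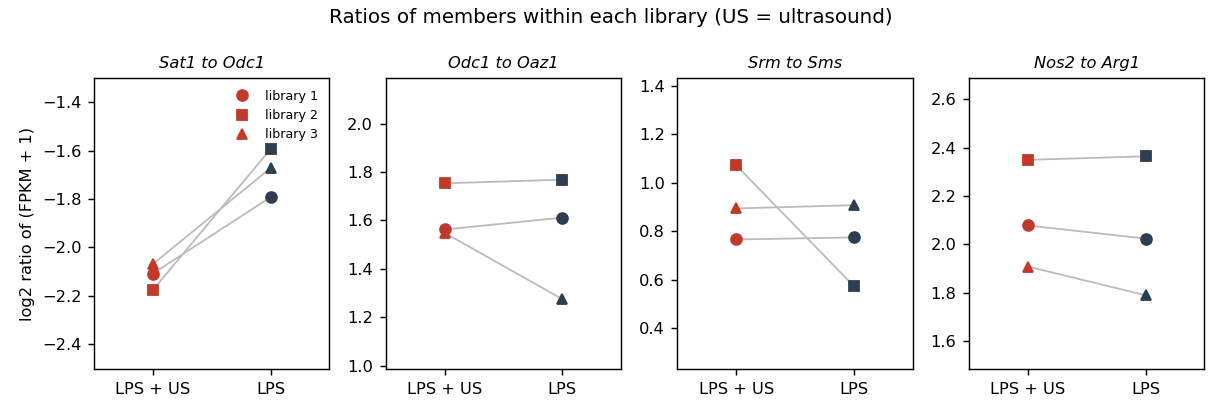
log2 ratio of (FPKM + 1) for 4 pairs of members in each library, LPS plus ultrasound (LPS + US, left) and LPS (right), with lines joining libraries of the same number and each panel spanning 1.2 log2 units. The groups separate for Sat1 to Odc1 (-2.18 to -2.07 against -1.79 to -1.59) and overlap in the other 3 panels.

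No other gene of these pathways passed. In 6 lists of 71 genes, 47 were tested, 0 passed in either direction (limma with Benjamini-Hochberg adjustment, smallest adjusted p = 0.13), and 6 (12.8%) had an unadjusted p below 0.05, beside 15.3% of all tested genes. Their median log2 difference was -0.03, and the groups did not overlap for 6 of 47 (12.8%), beside 23.2% of all tested genes.

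Among 7 tested genes of polyamine synthesis, interconversion and transport, 0 passed, 4 lay above 0, and the median log2 difference was 0.10. Smox, the spermine oxidase gene, had 17.1, 12.6 and 15.1 FPKM with ultrasound and 19.3, 18.9 and 21.8 FPKM with LPS. The groups did not overlap, with ultrasound lower (log2 difference -0.41 ± 0.12, limma with Benjamini-Hochberg adjusted p = 0.22). Azin1, whose product frees ornithine decarboxylase from antizyme, had 27.9, 29.1 and 31.5 FPKM with ultrasound and 31.5, 33.2 and 34.4 FPKM with LPS. Its groups were only just without overlap, with ultrasound library 3 at 31.49 and LPS library 1 at 31.54 FPKM (log2 difference -0.16 ± 0.08, limma with Benjamini-Hochberg adjusted p = 0.37). The polyamine transporter gene Atp13a3 had 24.9, 23.2 and 25.6 FPKM with ultrasound and 23.2, 17.2 and 18.9 FPKM with LPS, with ultrasound library 2 just under LPS library 1 (0.31 ± 0.11, limma with Benjamini-Hochberg adjusted p = 0.28).

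Of 10 tested genes of the methionine cycle and salvage, 0 passed, 3 lay above 0 and the median was -0.08. Mat2a, which makes the S-adenosylmethionine that the aminopropyl groups come from, had the largest difference of the 47. It had 22.8, 19.8 and 22.7 FPKM with ultrasound and 15.0, 11.1 and 13.1 FPKM with LPS. The groups lay far apart, and the log2 difference was 0.70 ± 0.12, short of the threshold (limma with Benjamini-Hochberg adjusted p = 0.13). Blocked on replicate number, limma gave Mat2a an adjusted p of 0.057, also short of it. Mat2b, the regulatory subunit gene, and Enoph1, a methionine salvage gene, had differences of -0.22 ± 0.15 and -0.17 ± 0.12. That of Mat2b was -0.07 without ultrasound library 3, and that of Enoph1 -0.04 without LPS library 3. Without LPS library 2 the list median was -0.02.

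Arginine and citrulline supply had 9 tested genes, of which 0 passed, with a median of 0.01. Gatm, which uses arginine to make the precursor of creatine, had 13.1, 16.1 and 14.4 FPKM with ultrasound and 16.3, 21.9 and 19.5 FPKM with LPS, lower in every ultrasound library (log2 difference -0.37 ± 0.12, limma with Benjamini-Hochberg adjusted p = 0.25). Slc7a1 averaged 39.7 ± 5.63 FPKM with ultrasound and 32.7 ± 5.32 FPKM with LPS (SD, n = 3 each), and the log2 difference of Slc7a7, a transporter gene for cationic amino acids, was -0.22 ± 0.11. Without LPS library 2 the difference of Slc7a1 was 0.14, beside 0.27 with all libraries, and the list median was -0.06.

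Of 12 tested nitric oxide partners 0 passed, and the median was -0.03. Calm3, for calmodulin, a subunit of the active synthase, and Qdpr, which recycles the cofactor tetrahydrobiopterin, had log2 differences of 0.13 ± 0.08 and -0.21 ± 0.15. That of Qdpr was -0.07 without LPS library 3, and the list median was 0.03 without LPS library 2. Gch1, the first enzyme gene of that cofactor, was named after its values were seen and had 20.3 to 23.7 FPKM with ultrasound and 21.2 to 25.3 FPKM with LPS.

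For ornithine to proline and glutamate 0 of 6 passed, with a median of -0.08. Aldh18a1, which makes the glutamate-derived precursor of proline and ornithine, had 9.37, 10.2 and 7.99 FPKM with ultrasound and 11.8, 17.2 and 12.8 FPKM with LPS, without overlap (log2 difference -0.54 ± 0.15, limma with Benjamini-Hochberg adjusted p = 0.22). LPS library 2 was again its highest library. The proline synthesis gene Pycr1 had a difference of 0.14 ± 0.11, and 0.07 without ultrasound library 2.

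In the hypusine pathway, where spermidine modifies the translation factor eIF5A, 0 of 3 passed, with a median of -0.03. Dhps, the enzyme gene for the first step, had 2.87, 4.03 and 2.54 FPKM with ultrasound and 4.44, 5.75 and 3.33 FPKM with LPS, overlapping (log2 difference -0.40 ± 0.20, limma with Benjamini-Hochberg adjusted p = 0.37), and the difference was -0.24 without LPS library 2. Dohh, for the second step, and Eif5a had differences of -0.03 ± 0.08 and 0.09 ± 0.10. That of Eif5a was 0.03 without LPS library 2, and that of Dohh turned to 0.03 without ultrasound library 2.

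**Figure D5:**
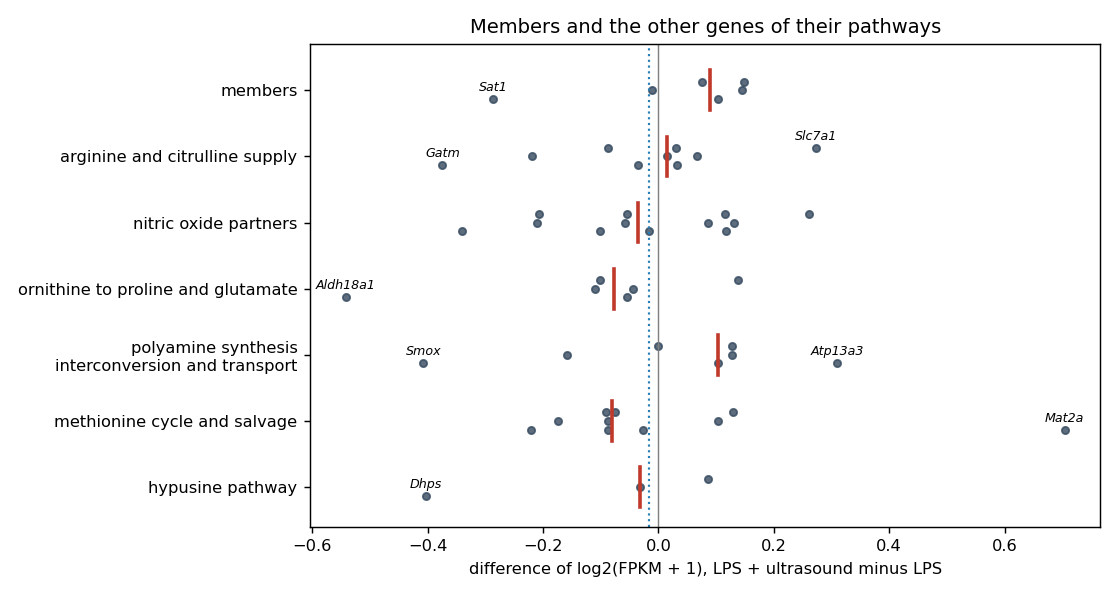
Log2 difference (FPKM + 1) of LPS plus ultrasound from LPS, positive when ultrasound is higher, for each tested gene (points) of the members and of the 6 lists around them, with red bars at list medians, a solid line at 0 and a dotted line at the median of all tested genes. Medians lie between -0.08 and 0.10, and Mat2a at 0.70 and Aldh18a1 at -0.54 lie farthest out.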

How the data were processed

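RNA of RAW264.7 cells was enriched with oligo(dT) and sequenced as paired ends, per the labels. The authors deposited FPKM per mouse Ensembl gene. How reads were aligned and quantified, on which mouse build and annotation, and with what strand setting, is not given in the sources used here. A rat build (mRatBN7.2) stands in the submitters' processing notes and rat muscle in the extraction text, while identifiers and markers are those of mouse macrophages. So no genome coordinates are given. The table has no counts, so depth and counting error are unknown.

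Names came from GENCODE M21, for 55154 identifiers. Genes averaging 1 FPKM or more went into a two-sided limma test (version 3.58.1, R 4.3.3) of log2(FPKM + 1). Moderation was robust and followed a trend of variance on level, and p-values were adjusted by Benjamini-Hochberg over every tested gene. Log2 differences are ultrasound minus LPS with the standard error, on a scale that understates changes of low genes. Copies were found with BLAST for the members only.

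Same-numbered libraries of the groups deviated together (correlations across genes 0.18, 0.44 and 0.41). On the strength of the data, the title numbers were read as pairs in the same-numbered comparisons and in the replicate block only. Standard errors, intervals and adjusted p-values come from the fit without pairs, unless the block is named. The members and lists were chosen with earlier results of these data known. The named genes are all members, up to 3 genes with the smallest p of each list, a few regulators and the highest markers, with additions said in place. Some genes under that rule are left unreported. Other pseudocounts, filters, scalings, moderation, sample weights and thresholds were tried, as were the replicate block, left-out libraries and added copies.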

Additional observations from a re-analysis of the deposited data

How the results depend on the processing

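No member passed the threshold under any alternative run. Odc1, Oaz1 and Sat1 kept their direction in all of them, with log2 differences of 0.05 to 0.25, 0.03 to 0.13 and -0.37 to -0.13. Srm turned to -0.0244 with sample weights and to -0.0225 without both libraries numbered 2. With 1 library left out, Nos2 ranged from -0.0105 (without LPS library 3) to 0.208, and Sms from -0.0475 to 0.0249, above 0 without ultrasound library 1, ultrasound library 3 or LPS library 2. With near-identical copies added, chosen after seeing the data, Sms was at 0.00137. The cause was not tested. The count of genes past the threshold, 2 as reported, was 1 with a filter at 5 FPKM, 5 with libraries scaled to the same sum, 223 with sample weights (71 higher and 152 lower with ultrasound), 13 with the replicate block (4 higher and 9 lower), 8 at a threshold of 0.1, 6 without both libraries numbered 2, and 2 to 8 with 1 library left out. With the same-sum scaling 4 of the 5 were higher with ultrasound, against both of 2 as reported. Left-out values of genes other than the members were added after seeing the data. The block changed no call of a member or of the 6 pathway lists. Depth is unknown, so counting error at the 4 members below 1 FPKM could not be given.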

Other observations

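Genes known to regulate the members, or to mark the alternative activation that arginase belongs to, were looked at beside them. Of 13 tested regulators 0 passed the threshold and 4 lay above 0, with a median log2 difference of -0.07. Ppard, a lipid-sensing nuclear receptor gene, had 20.8, 18.3 and 20.6 FPKM with ultrasound and 11.8, 10.5 and 11.3 FPKM with LPS (log2 difference 0.77 ± 0.08, limma with Benjamini-Hochberg adjusted p = 0.061). Blocked on replicate number, limma gave Ppard an adjusted p of 0.035, and it was the 1 regulator that passed. Irf1, an interferon-regulated activator of Nos2, had 4.59, 6.73 and 5.97 FPKM with ultrasound and 8.34, 8.34 and 7.17 FPKM with LPS, lower in every ultrasound library (-0.41 ± 0.13, limma with Benjamini-Hochberg adjusted p = 0.25), and Max, the partner of Myc, had a difference of 0.22 ± 0.09. The differences of Hif1a, Nfkb1, Stat6 and Cebpb were -0.23, -0.09, -0.07 and -0.06. Those of Stat6 and Cebpb turned to 0.01 and 0.02 without ultrasound library 2 and without ultrasound library 3, that of Hif1a was -0.15 without LPS library 2, and the list median was then -0.11. Myc, a known activator of Odc1, lay below the filter at 0.298 ± 0.176 FPKM with ultrasound and 0.702 ± 0.427 FPKM with LPS (SD, n = 3 each).

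Of 12 alternative activation markers 5 were tested and 0 passed, with a median of -0.29. Tgm2, the transglutaminase 2 gene, had 7.35, 5.63 and 7.92 FPKM with ultrasound and 10.2, 12.9 and 10.6 FPKM with LPS, without overlap (log2 difference -0.62 ± 0.14, limma with Benjamini-Hochberg adjusted p = 0.18). The chemokine genes Ccl22 and Ccl17 had differences of -0.33 ± 0.16 and -0.29 ± 0.27. Without LPS library 2 they were -0.18 and 0.03, and the list median, which is the value of Ccl17 with all libraries, was -0.18. Retnla and Cd163 were listed at 0 in all 6 libraries, and Mrc1 and Chil3 had means of 0.0103 and 0.00395 FPKM.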
